A study of Homo sapiens with 17 samples.

Results

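The transcripts described here come from the smaller human satellite families, which are SST1, TAR1, LSAU, the gamma satellites GSAT, GSATII and GSATX, the beta satellite BSR/Beta, CER, HSAT4, HSAT5, HSAT5v2 and 4 composite models whose names begin with COMP-subunit_LSAU. The rule that picked the loci used repeat class and subfamily name and no measured value. The families themselves were chosen with earlier results of these data known. The rule found 2612 loci of 15 subfamilies among 9954 satellite loci and 4748242 repeat loci in all. Poly(A)-selected RNA was sequenced in 17 libraries of IMR90 ER:RAS cells, a strain of human lung fibroblasts. All 17 libraries carried an oncogenic RAS fused to an oestrogen receptor domain, delivered by a retroviral vector. 4-hydroxytamoxifen (4OHT) turns the fusion protein on and the cells become senescent, and DMSO is the control treatment. The groups were DMSO siNT (non-targeting siRNA, n = 5), 4OHT siNT (n = 6) and 4OHT siSMARCA4 (siRNA against SMARCA4, n = 6), and the labels give no time of harvest. Each label holds an siRNA number, 2 or 4, and each group pools libraries of both numbers. No library combined DMSO with siSMARCA4, so an effect of the knockdown outside senescence was not measured. The labels do not say whether libraries of a group came from separate cultures, so p-values measure the spread between these libraries, which may be technical.

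Satellites are tandem repeats that build the heterochromatin around centromeres and next to telomeres, and they are usually kept silent by DNA methylation and by heterochromatin proteins. SST1 is a GC-rich macrosatellite, TAR1 lies beside telomere repeats, gamma and beta satellites lie next to centromeric alpha satellite, and LSAU is part of the D4Z4-type repeat that also holds copies of the DUX4 gene. SMARCA4 is an ATPase of the SWI/SNF complex, which moves nucleosomes.

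The sequences on which the results turn are shown as the first 300 bases, or all bases where the locus is shorter, of the locus with the most counts in 4 subfamilies, read from the plus strand of GRCh38. The deposited rows do not give the strand of a locus. Capitals mark CpG, the dinucleotide that DNA methylation acts on. SST1 is at chr9:66269161-66269460, LSAU at chr9:63817236-63817535, the composite model COMP-subunit_LSAU-BSAT_rnd-6_family-5403 (family-5403 from here on) at chr9:63816556-63816855 and TAR1 at chr9:136352058-136352330.
SST1: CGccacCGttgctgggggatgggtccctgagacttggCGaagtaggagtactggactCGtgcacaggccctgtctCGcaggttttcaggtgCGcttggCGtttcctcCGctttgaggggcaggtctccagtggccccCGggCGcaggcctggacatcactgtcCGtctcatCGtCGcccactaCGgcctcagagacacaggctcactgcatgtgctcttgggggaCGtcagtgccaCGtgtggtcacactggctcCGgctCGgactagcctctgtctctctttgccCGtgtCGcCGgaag
LSAU: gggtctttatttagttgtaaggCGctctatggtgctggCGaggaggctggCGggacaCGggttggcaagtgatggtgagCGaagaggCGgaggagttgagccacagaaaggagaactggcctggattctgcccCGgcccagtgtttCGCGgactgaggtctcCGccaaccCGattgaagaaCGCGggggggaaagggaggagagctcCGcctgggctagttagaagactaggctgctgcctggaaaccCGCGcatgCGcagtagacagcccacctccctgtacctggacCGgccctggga
family-5403: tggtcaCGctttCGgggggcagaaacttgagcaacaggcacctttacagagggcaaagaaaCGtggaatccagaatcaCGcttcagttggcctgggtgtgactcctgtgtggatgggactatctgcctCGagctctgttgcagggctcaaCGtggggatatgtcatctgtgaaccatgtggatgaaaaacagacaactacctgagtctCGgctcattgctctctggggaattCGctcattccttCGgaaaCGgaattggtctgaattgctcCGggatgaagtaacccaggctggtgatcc
TAR1: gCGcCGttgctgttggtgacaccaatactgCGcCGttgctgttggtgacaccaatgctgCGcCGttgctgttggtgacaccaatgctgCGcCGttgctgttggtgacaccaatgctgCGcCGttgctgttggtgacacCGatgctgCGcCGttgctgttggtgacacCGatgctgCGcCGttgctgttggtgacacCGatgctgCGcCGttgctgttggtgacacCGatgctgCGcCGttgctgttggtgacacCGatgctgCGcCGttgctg
These stretches hold 21 CpG in SST1, 18 in LSAU, 11 in family-5403 and 25 in TAR1. The TAR1 stretch matched itself at 99.2% of positions after a shift of 29 bases, so it is a short tandem repeat. In the other 3 stretches the best shift matched 31.6% to 33.1% of positions.

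Counts were concentrated in very few of these loci. Of the 2612 loci, 1956 had 0 counts in all 17 libraries, 517 had 1 to 9 counts and 139 had 10 or more. The 19182 counts in all came to between 668 and 1423 in a library, and the 3 loci with the most held 34.8% of them. Copies on chromosome 9 held 57.8% of all counts although only 140 of the loci lie there. Within 100 kb of a chromosome end lay 20.4% of TAR1 loci but 1.93% of TAR1 counts. Within 1 Mb of any locus annotated as alpha satellite, isolated or in an array, lay 45.2% of all the loci and 69.1% of their counts. Outside annotated genes fell 57.7% of the counts, in exons 23.2% and in introns 19.0%.

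Base composition is given as a description, and loci with and without counts differed in it in some of these families. For SST1 the median GC content was 49.3% in the 690 copies with 0 counts, 59.7% in the 113 copies with 1 to 9 counts and 65.8% in the 27 copies with 10 or more. The SST1 ratio of observed to expected CpG was 0.154, 0.476 and 0.683 in the same classes. For TAR1 the ratio was 0.655 in the 90 copies with 0 counts and 0.906 in the 31 copies with 10 or more. LSAU, family-5403 and rnd-1_family-4 went the other way, LSAU with a median GC content of 72.7% in its 69 copies with 0 counts and 60.7% in its 5 copies with 10 or more. In family-5403 the same medians were 60.3% and 55.9%. BSR/Beta hardly differed, at 43.9% and 45.6%, nor did CER, at 45.8% and 46.0%. Length differed between the same 2 classes as well. Its median was 873.5 and 1565 bases for SST1, 465 and 563 for TAR1, 857 and 1790 for BSR/Beta and 91 and 4176 for CER. For LSAU it was 305 and 302 bases, and HSAT5v2 went the other way, at 348 and 214. The part of length in these differences was not tested.

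Library totals were 39109479 to 68978119 counts. SMARCA4 (ENSG00000127616, GRCh38 chr19:10960932-11079426), the targeted gene, was at 252 to 285 CPM (counts per library size, scaled by TMM, the trimmed mean of M values) in 4OHT siNT and at 68.4 to 126 CPM in 4OHT siSMARCA4, without overlap. Of the fibroblast markers, 8 of 8 had counts enough to be tested, with a summed level of 22839 to 27432 CPM in DMSO siNT, 13347 to 17446 CPM in 4OHT siNT and 7492 to 10773 CPM in siSMARCA4. By edgeR 7 of the 8 were called lower in senescence and 7 after knockdown, and their part in the results was not tested. The epithelial markers summed to 101 to 139 CPM in DMSO siNT, 66.2 to 83.4 in 4OHT siNT and 35.9 to 59.0 in siSMARCA4, with 3 of 4 tested called lower in senescence and 4 after knockdown, and CDH1 was too low to test. The endothelial markers PECAM1, CDH5 and VWF summed to 0.798 to 1.83, 3.52 to 5.54 and 1.73 to 4.25 CPM in the same groups, with PECAM1 and VWF called higher in senescence and PECAM1 lower after knockdown. The part of both lists in the results was not tested. Every label also held an siRNA number, 2 or 4, which comes first in the library names, and a tag ending in V or VM. The labels do not explain them, and all 4OHT siNT libraries were VM. Number 4 covered DMSO siNT 4-2VM and 4-3VM, 4OHT siNT 4-1VM, 4-2VM and 4-3VM and siSMARCA4 4-2V, 4-2VM and 4-3V. The VM libraries of siSMARCA4 were 2-1VM, 2-3VM and 4-2VM. Fits in 1 number or in VM alone hold few libraries, and whether a call was lost there for that reason was not tested. Counts at repeat loci more than 50 kb from any gene and with no more than 20 counts in all, here called sparse repeat counts, were 75.1 ± 36.0 per 1000000 counts (SD, n = 5) in DMSO siNT, 55.1 ± 10.97 (n = 6) in 4OHT siNT and 113 ± 48.1 (n = 6) in 4OHT siSMARCA4. They ran from 35.9 to 68.9 in the 4OHT siNT libraries and from 70.6 to 198 in the siSMARCA4 libraries, without overlap. A fit with this level as a term can therefore hardly tell it from the knockdown. A knockdown call lost in such a fit is not read as an effect of this level. Apart from fits with this level as a term, its part in the results was not tested. Library siSMARCA4 4-3V held the fewest counts of these families, with 12.7 of their counts per 1000000 where the other 5 siSMARCA4 libraries had 17.9 to 25.7. This library was the lowest of its group for SST1, TAR1, GSATII, LSAU, GSAT, HSAT4, HSAT5 and HSAT5v2. Without it the log2 fold change after knockdown was -0.98 for LSAU, -0.17 for SST1, -0.33 for TAR1 and 0.42 for GSATII, and LSAU and family-5403 stayed called. In bulk RNA, fewer expressing cells and less RNA per cell cannot be told apart.

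The first question was how these satellites differed between 4OHT and DMSO within siNT, and "in senescence" stands for this comparison. All libraries carried the RAS fusion, so effects of 4OHT itself, of RAS and of senescence cannot be told apart. SST1 and TAR1 were higher and HSAT5v2 and GSAT lower, so 2 of the 13 subfamilies tested rose and 2 fell. Loci in introns held 33.6% of TAR1 counts, 67.9% of HSAT5v2 counts, 89.1% of GSAT counts and 5.27% of SST1 counts. Exons held a further 33.2% of TAR1 counts, 27.3% of HSAT5v2 counts and 17.1% of SST1 counts, and 0% of GSAT counts. A subfamily sum can thus follow a few loci inside genes, which are given below. Over all 1026 repeat subfamilies tested, 10.1% were called higher and 6.73% lower (edgeR, adjusted p under 0.05). GSATX, with 32 counts in all, and COMP-subunit_LSAU-BSAT_rnd-1_family-10, with 5, were too low to test. The median log2 fold change was 0.036 over the 13 and 0.054 over all subfamilies. With scaling from repeats alone, 82 of all subfamilies were called higher and 84 lower, where the chosen scaling called 104 and 69.

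SST1 was at 3.72, 3.64, 5.43, 3.85 and 4.71 CPM in the 5 DMSO siNT libraries. In 4OHT siNT it ran from 7.32 through 8.07 to 11.04 CPM (lowest, median and highest), and in 4OHT siSMARCA4 from 4.13 through 7.74 to 8.80 CPM. All senescent siNT libraries lay above all DMSO libraries, whereas the senescent groups overlapped with each other. The log2 fold change in senescence was 1.01 (SE 0.18, adjusted p 0.000400 by edgeR), a 2.02-fold rise. The call was lost in siRNA number 4 alone (log2 fold change 0.78, adjusted p 0.0733 by edgeR).

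TAR1 was at 2.70, 3.72, 4.68, 4.201 and 3.24 CPM in DMSO siNT. It ran from 4.14 through 5.64 to 7.53 CPM in 4OHT siNT and from 2.68 through 4.49 to 4.97 CPM in siSMARCA4. The lowest senescent siNT libraries overlapped with the highest DMSO libraries. The log2 fold change was 0.62 (SE 0.19, adjusted p 0.0344 by edgeR). This call ended with scaling from repeats alone, in siRNA number 2 alone, in siRNA number 4 alone, in VM libraries alone, with the tag letters as a term and with sparse repeat counts as a term (log2 fold changes 0.44 to 0.70, adjusted p 0.0529 to 0.252 by edgeR). It also ended when any of 6 single libraries was left out, which were DMSO siNT 2-1V, 2-2V and 4-3VM and 4OHT siNT 2-1VM, 4-1VM and 4-2VM. In those fits the log2 fold change lay between 0.50 and 0.59 and the adjusted p of edgeR between 0.0592 and 0.109.

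HSAT5v2 was at 0.803, 1.35, 1.01, 0.968 and 0.587 CPM in DMSO siNT. It ran from 0.173 through 0.311 to 0.363 CPM in 4OHT siNT and from 0.0966 through 0.288 to 0.394 CPM in siSMARCA4, so that no senescent library reached the lowest DMSO library. The log2 fold change was -1.66 (SE 0.28, adjusted p 0.000305 by edgeR), and the call was lost in siRNA number 4 alone (log2 fold change -1.24, adjusted p 0.0950 by edgeR). GSAT was at 0.471, 0.617, 0.763, 0.794 and 1.02 CPM in DMSO siNT and from 0.288 through 0.395 to 0.568 CPM in 4OHT siNT, and these groups overlapped. Its log2 fold change was -0.80 (SE 0.25, adjusted p 0.0357 by edgeR). GSAT lost its call without any of 7 single libraries, which were DMSO siNT 2-2VM, 4-2VM and 4-3VM and 4OHT siNT 2-1VM, 4-1VM, 2-2VM and 2-3VM. In those fits the log2 fold change lay between -0.81 and -0.64 and the adjusted p of edgeR between 0.0560 and 0.113. The GSAT call also ended in siRNA number 2 alone, in siRNA number 4 alone, with the replicate number as a block and with sparse repeat counts as a term (log2 fold changes -0.90 to -0.74, adjusted p 0.0653 to 0.141 by edgeR).

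**Figure D1:**
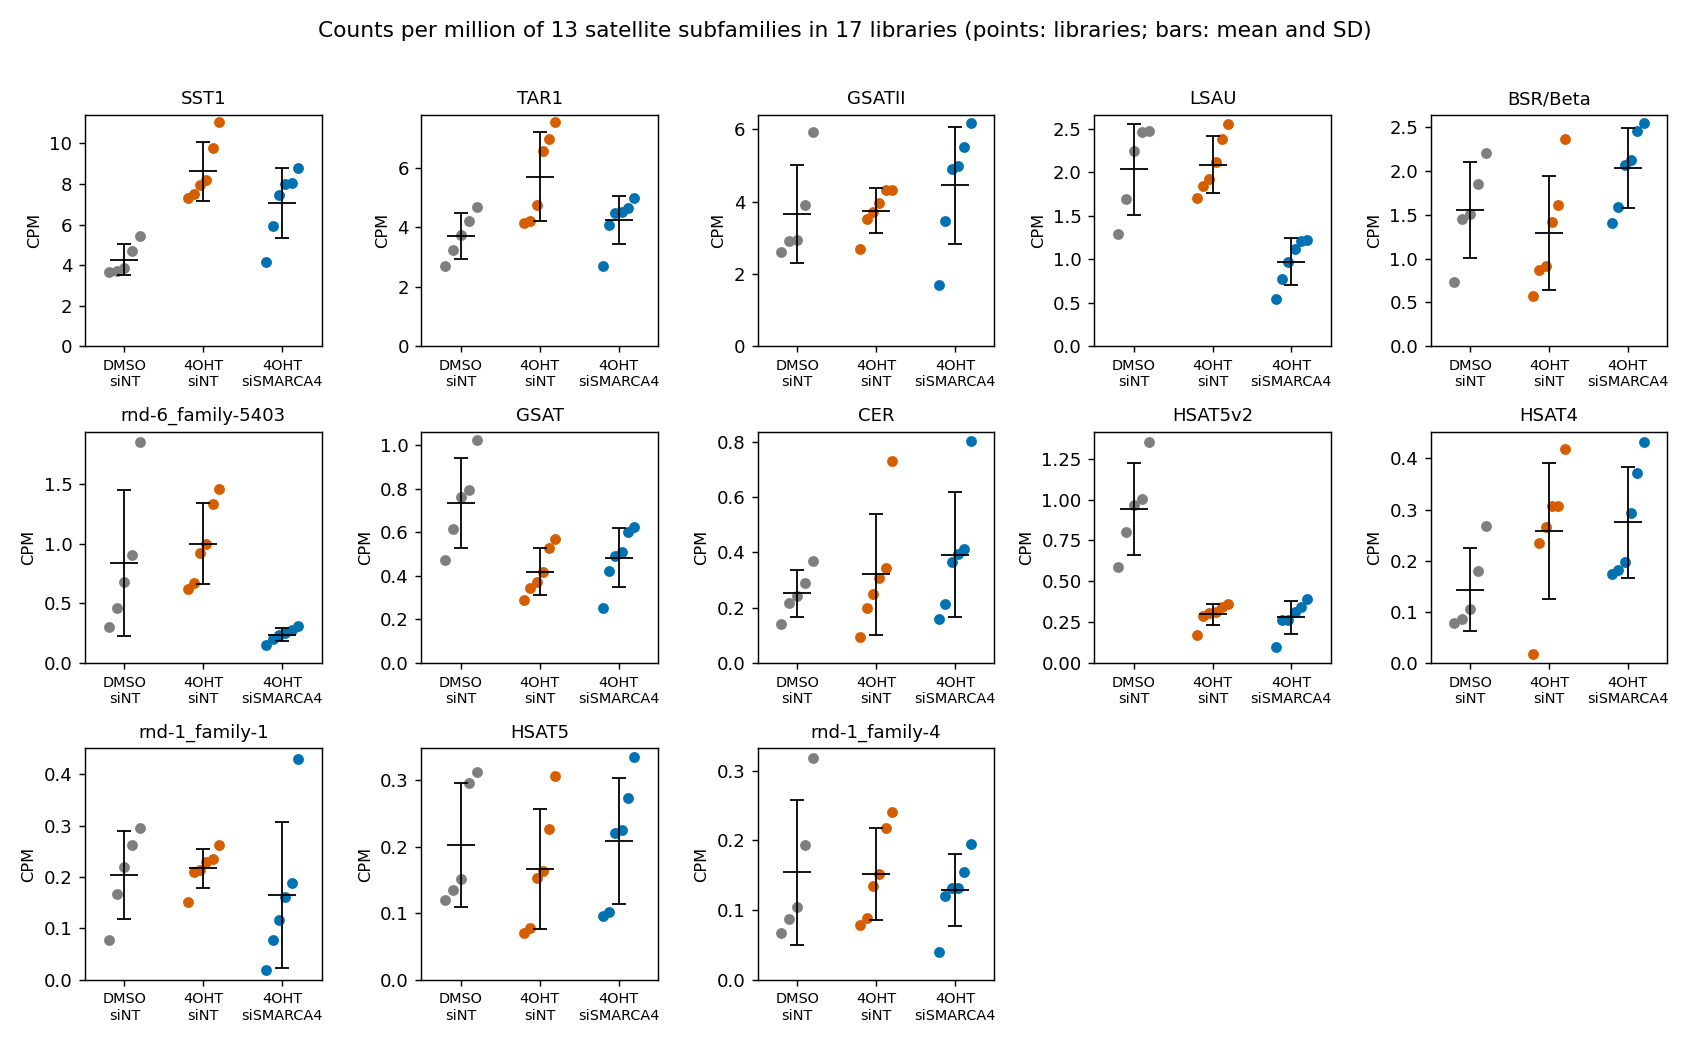
Counts per library size (CPM, scaled by TMM) of the 13 subfamilies tested (vertical axes, each from 0) in the 3 groups, with 1 point per library and the mean with SD as black bars. Every 4OHT siNT library lay above every DMSO library for SST1, and LSAU was lowest in siSMARCA4, where it did not exceed 1.22 CPM.

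The other 9 subfamilies were not called in senescence. LSAU was at 1.29 to 2.48 CPM in DMSO siNT and 1.70 to 2.55 CPM in 4OHT siNT, a log2 fold change of 0.036 with a 95% interval of -0.37 to 0.45. All 95% intervals given are normal approximations from the SE, somewhat narrower than the quasi-likelihood test would give. GSATII was at 2.62 to 5.92 CPM and 2.69 to 4.32 CPM in these groups, with an interval of -0.48 to 0.56. The interval was -0.88 to 0.35 for BSR/Beta, -0.12 to 1.78 for HSAT4, -0.46 to 0.94 for family-5403 and -1.11 to 0.53 for HSAT5. These groups overlapped for all 9. Without 4OHT siNT 2-2VM, HSAT4 was called, at 1.09 (adjusted p 0.0498 by edgeR). GSATII was called in 1 of the 28 alternative fits and in 0 of the 17 fits that left out 1 library, and its sign turned in 9 of the 28.

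The second question was what the knockdown of SMARCA4 did within senescence. LSAU and family-5403, which lie side by side in the genome, were lower in siSMARCA4, and 0 of the 13 subfamilies was called higher. Over all 1026 subfamilies, 19.4% were called higher and 0.975% lower. Among the 12 satellite subfamilies outside these families that could be tested, 5 were called higher and 0 lower. The median log2 fold change was -0.093 over the 13 and 0.25 over all subfamilies. When the scaling came from repeats alone, the median of all subfamilies moved to -0.021 and that of the 13 to -0.35, and again 2 of the 13 were called, both lower. Over all subfamilies this scaling called 6 higher and 15 lower, where the chosen scaling called 199 and 10. By edgeR 4 of the 13 had an unadjusted p under 0.05, and DESeq2 also called 2 lower and 0 higher.

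LSAU ran from 1.70 through 2.02 to 2.55 CPM in 4OHT siNT and from 0.541 through 1.04 to 1.22 CPM in siSMARCA4. In DMSO siNT it was at 1.29, 2.25, 2.46, 2.48 and 1.69 CPM. Every siSMARCA4 value was below all values of both siNT groups. The log2 fold change was -1.10 (SE 0.21, adjusted p 0.00343 by edgeR), a 2.15-fold fall. Family-5403 ran from 0.625 through 0.959 to 1.46 CPM in 4OHT siNT and from 0.150 through 0.243 to 0.307 CPM in siSMARCA4, again without overlap, and was at 0.907, 0.676, 1.86, 0.465 and 0.302 CPM in DMSO siNT. The lowest DMSO library lay within the siSMARCA4 range. Its log2 fold change after knockdown was -2.06 (SE 0.37, adjusted p 0.00323 by edgeR). Both subfamilies stayed called when any 1 library was left out. With the level of sparse repeat counts as a term in the fit, the log2 fold change was -1.16 (adjusted p 0.145 by edgeR) for LSAU and -1.63 (adjusted p 0.190 by edgeR) for family-5403, and 0 of the 13 were called (3 at an unadjusted p under 0.05). This level did not overlap between the groups compared, so the fit can hardly tell it from the knockdown.

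BSR/Beta stood at 0.569 to 2.37 CPM in 4OHT siNT and 1.41 to 2.54 CPM in siSMARCA4, and its log2 fold change of 0.65 (SE 0.30, adjusted p 0.128 by edgeR) did not pass. Without 4OHT siNT 4-1VM it was 0.91 (adjusted p 0.0349 by edgeR). Of BSR/Beta counts, 66.8% fell in exons and 13.6% in introns, so its sum largely follows loci inside genes. The locus with the most, 11.7% of them, is an 80-base match at chr16:70364472-70364551 in an exon of DDX19A. That locus was at -0.050 (SE 0.58, adjusted p 0.975 by edgeR) after knockdown. TAR1 was at -0.43 (SE 0.18, adjusted p 0.101 by edgeR) and SST1 at -0.29 (SE 0.16, adjusted p 0.229 by edgeR) on the same scale. The 95% interval for GSATII was -0.25 to 0.74 and for HSAT5v2 -0.66 to 0.47. GSAT, GSATII and HSAT4 had positive log2 fold changes of 0.19, 0.25 and 0.094 that turned negative when scaled from repeats alone.

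The siRNA numbers were also taken apart. In siRNA number 2 the log2 fold change after knockdown was -1.18 (SE 0.29) for LSAU and -2.51 (SE 0.39) for family-5403. In number 4 it was -1.01 (SE 0.29) for LSAU and -1.52 (SE 0.38) for family-5403. LSAU passed in neither number (adjusted p 0.0649 and 0.0586 by edgeR), and family-5403 passed in both (0.00441 and 0.0494). HSAT5 had 1.42 (SE 0.47) in number 2 and -0.73 (SE 0.45) in number 4. A test of the difference between the numbers, added after the data were seen, called 0 of 1026 subfamilies in edgeR, and HSAT5 had an unadjusted p of 0.00484 (adjusted p 0.926 by edgeR).

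**Figure D2:**
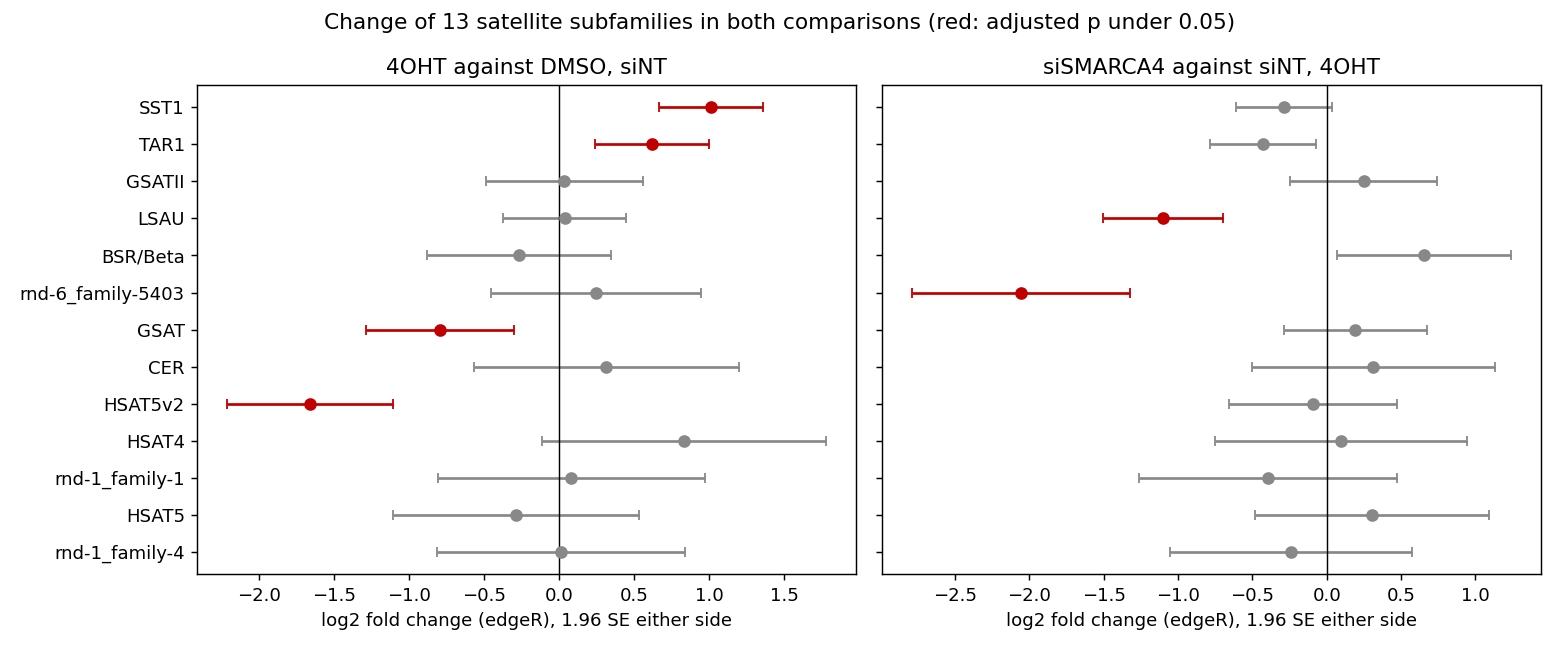
Log2 fold change (horizontal axes) of the 13 subfamilies with an approximate 95% interval from the SE. Shown are 4OHT against DMSO within siNT (left) and siSMARCA4 against siNT within 4OHT (right). Red marks an adjusted p under 0.05 by edgeR. The 4 red points on the left are SST1, TAR1, GSAT and HSAT5v2, and the 2 on the right are LSAU and family-5403.

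Single loci were tested next. Of the 2612 loci, 33 had counts enough, and they held 76.1% of the counts of these families. After knockdown 4 were lower and 1 higher, beside 1.80% and 4.36% of all 13026 repeat loci. In senescence 2 were higher and 2 lower, beside 18.1% and 9.32%. These loci passed the filter on counts in the same libraries, so their number describes the loci that could be measured. With the level of sparse repeat counts as a term, 0 of the 33 were called after knockdown by edgeR (10 at an unadjusted p under 0.05) and 4 in senescence.

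The SST1 signal came mostly from 1 copy. The locus at chr9:66269161-66270420, outside any annotated gene, held 75.0% of all SST1 counts. It was at 2.34, 2.41, 3.73, 2.57 and 3.32 CPM in the DMSO siNT libraries and 5.58 to 8.89 CPM in the 4OHT siNT libraries, without overlap. Its log2 fold change in senescence was 1.18 (SE 0.21, adjusted p 0.000272 by edgeR), and the call was lost in siRNA number 4 alone (log2 fold change 0.88, adjusted p 0.0823 by edgeR). In siSMARCA4 it was at 2.55 to 6.25 CPM, which overlapped with 4OHT siNT, and the log2 fold change after knockdown was -0.43 (SE 0.19, adjusted p 0.185 by edgeR).

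This copy is the end of a unit with GSATII, TAR1, GSATII and SST1 in that order. On chromosome 9, 3 such units held 100 or more counts. Units with fewer counts were not listed, so 3 is not the number of copies in the genome. Unit B has 1 more TAR1 element between GSATII and SST1, and in unit C the first GSATII is split into 2 loci. Unit A is chr9:66263241-66270420, unit B is chr9:40106205-40112749 in the reverse orientation, and unit C is chr9:41352123-41359305. Together their 14 loci held 40.3% of the counts of these families. The SST1 copies of A and B differ at 11 of 1260 bases, yet 4515 counts were given to A and 55 to B. GSATII was shared more evenly, with 1094 counts in A, 1013 in B and 581 in C. At this identity reads can fit more than 1 copy, so the division of counts among the copies is uncertain. Within unit A the SST1 counts by group were 801 in DMSO siNT, 2071 in 4OHT siNT and 1643 in siSMARCA4. The longer GSATII locus of unit A had 235, 255 and 337 counts and the shorter 85, 81 and 101 in the same groups, with no call.

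The ratio of SST1 to GSATII counts within unit A was computed after the data were seen, with 0.5 added to each count. Its log2 value was 1.38 ± 0.60 (SD, n = 5) in DMSO siNT, 2.65 ± 0.45 (n = 6) in 4OHT siNT and 1.98 ± 0.37 (n = 6) in siSMARCA4. An exact permutation test of these ratios was run, but the elements had been picked for their pattern, so its p-values are not used and the ratios stand as a description. They also rest on the uncertain division of counts among the copies.

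LSAU also came largely from 1 place. The LSAU locus at chr9:63817236-63817537 held 79.9% of LSAU counts, and a family-5403 locus at chr9:63816556-63817227 with 33.9% of the counts of its subfamily lies directly before it. Their nearest copies among the loci of these families over at least 80% of their length matched at 91.7% and 93.1% of bases. A shorter family-5403 locus of 233 bases, at chr9:62798833-62799065, matched part of this family-5403 locus at 98.7%, so the division of counts between them is uncertain. The LSAU locus was at 1.15, 1.99, 2.13, 2.13 and 1.27 CPM in DMSO siNT, 1.44 to 2.05 CPM in 4OHT siNT and 0.394 to 0.885 CPM in siSMARCA4. All siSMARCA4 libraries were lower than all others. The log2 fold change after knockdown was -1.20 (SE 0.23, adjusted p 0.00834 by edgeR). The neighbouring family-5403 locus had 11 to 24 counts in 4OHT siNT and 2 to 7 in siSMARCA4, without overlap in CPM, and a log2 fold change of -1.80 (SE 0.37, adjusted p 0.0118 by edgeR). The LSAU locus lost its call without a low-count filter, in siRNA number 2 alone, in siRNA number 4 alone and with sparse repeat counts as a term (log2 fold changes -1.37 to -1.01, adjusted p 0.0709 to 0.268 by edgeR), and the family-5403 locus without a low-count filter, in siRNA number 2 alone, in siRNA number 4 alone, in VM libraries alone and with sparse repeat counts as a term (log2 fold changes -2.03 to -1.41, adjusted p 0.0780 to 0.308 by edgeR). Beyond LSAU, over another composite model of the module, lies DUX4L50, a pseudogene copy of DUX4, which was at -1.26 (SE 0.38, adjusted p 0.0223 by edgeR) after knockdown.

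Another family-5403 locus, at chr20:30812229-30812895, had 7 to 35 counts in 4OHT siNT and 0 to 7 in siSMARCA4, with a log2 fold change of -2.85 (SE 0.79, adjusted p 0.0391 by edgeR). In DMSO siNT it had 1, 4, 27, 2 and 0 counts, most of them in 1 library, and its log2 fold change in senescence was not called, at 1.64 (SE 0.76, adjusted p 0.124 by edgeR). Its call was lost without any 1 of 9 libraries, which were 4OHT siNT 2-1VM, 4-1VM, 2-2VM, 4-2VM and 2-3VM and 4OHT siSMARCA4 2-1VM, 2-3V, 2-3VM and 4-2VM. In those fits the log2 fold change lay between -2.97 and -2.60 and the adjusted p of edgeR between 0.0552 and 0.0863. Other settings that ended it were the fits in siRNA number 2 alone, in siRNA number 4 alone, in VM libraries alone, with the tag letters as a term, with the siRNA number as a term, with the replicate number as a block and with sparse repeat counts as a term (log2 fold changes -3.87 to -1.59, adjusted p 0.0508 to 0.498 by edgeR). Beside it a 5S RNA composite repeat was at -2.37 (SE 0.63, adjusted p 0.0337 by edgeR) and an LTR2 element at -1.95 (SE 0.66, adjusted p 0.0845 by edgeR). The family-5403 locus at chr9:62798833-62799065, in an exon of the lncRNA ENSG00000288838, did not pass, at -1.82 (SE 0.66, adjusted p 0.104 by edgeR), and the lncRNA itself was at -0.93 (SE 0.13, adjusted p 0.000103 by edgeR). The LSAU module of chromosome 3 had 91, 137 and 84 counts in the 3 groups, and its LSAU locus at chr3:75670366-75670668 was not called, at -0.69 (SE 0.49, adjusted p 0.435 by edgeR).

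Farther on, past DUX4L50 on the same side of LSAU, lies a Tigger1 DNA transposon at chr9:63819223-63820455, with 1228, 1169 and 922 counts in DMSO siNT, 4OHT siNT and siSMARCA4 and no call after knockdown, at -0.45 (SE 0.20, adjusted p 0.179 by edgeR). The log2 ratio of LSAU with family-5403 to Tigger1 was -1.05 ± 0.36 (SD, n = 6) in 4OHT siNT and -1.95 ± 0.52 (n = 6) in siSMARCA4. These elements too were picked after their values were seen, and the p-value of the same permutation test is not used for them.

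**Figure D3:**
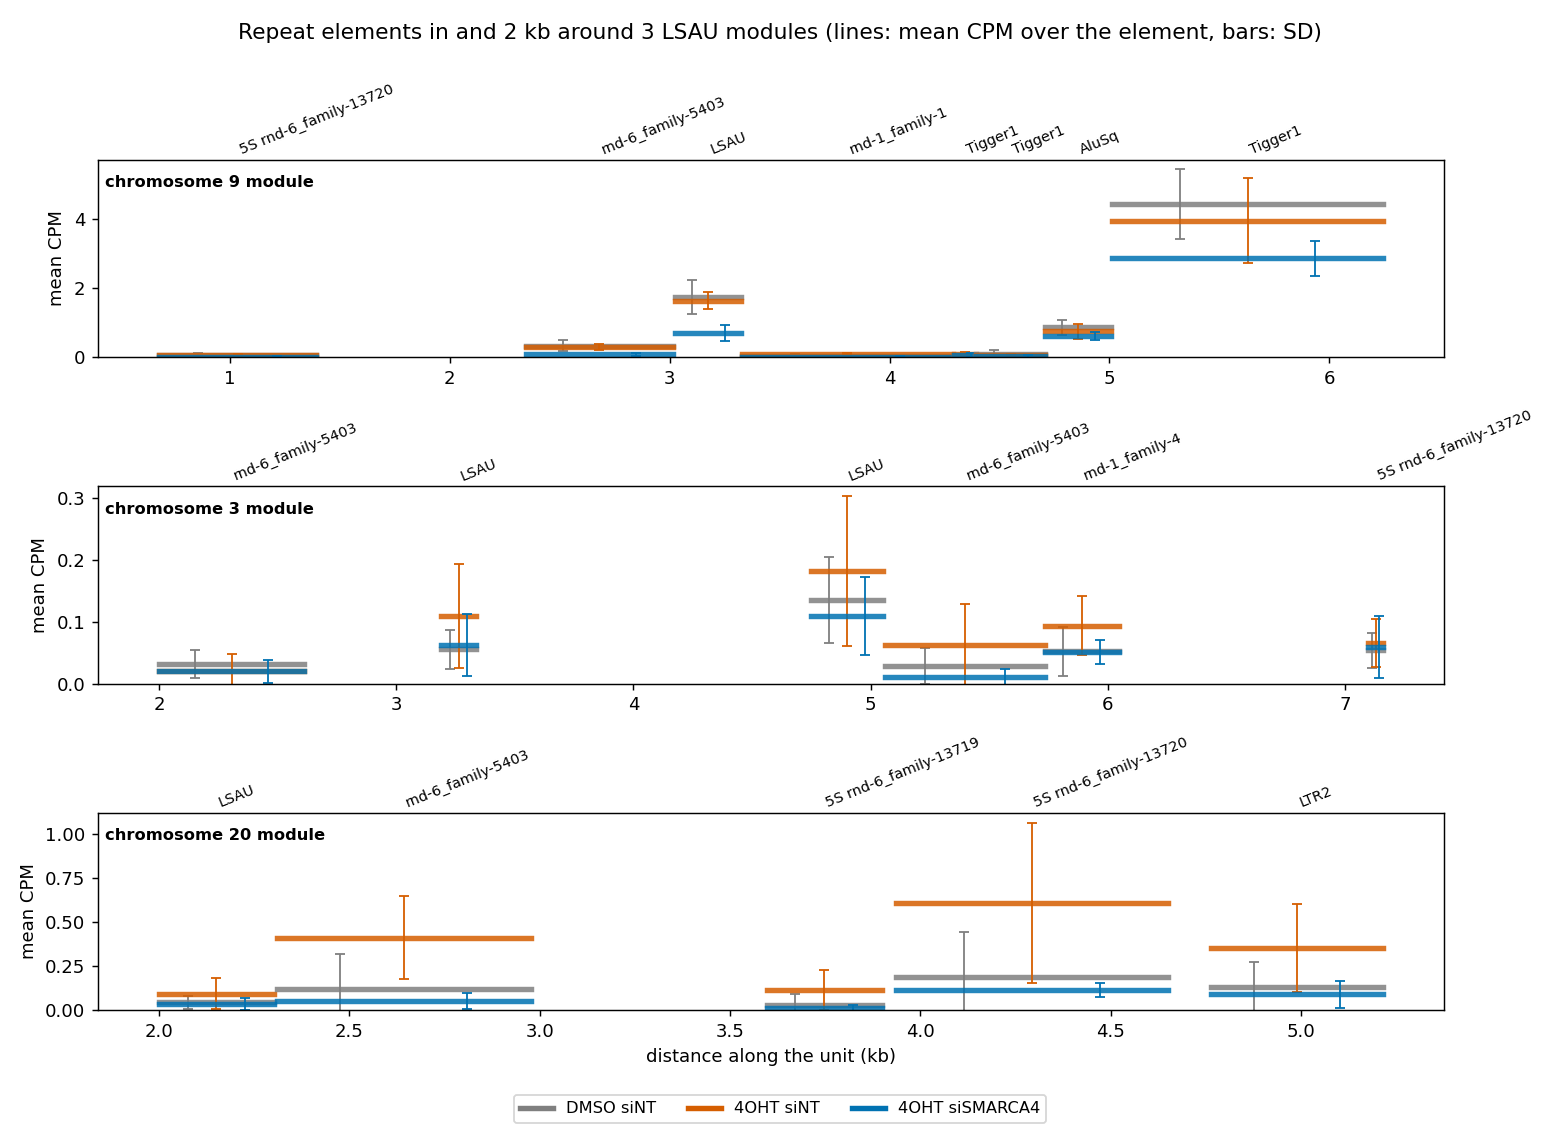
Mean CPM (vertical axes, from 0) of repeat elements with 20 or more counts in and around the LSAU modules of chromosomes 9, 3 and 20, against distance in kb; lines span the elements, bars are SD over libraries (cut at 0), and colours are the groups. On chromosome 9 LSAU and family-5403 were lowest in siSMARCA4, and family-5403 on chromosome 20 had medians of 0.0387, 0.371 and 0.0579 CPM in DMSO siNT, 4OHT siNT and siSMARCA4, of which the DMSO and 4OHT siNT libraries overlapped.

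The other called loci lay inside genes. TAR1 at chr9:136352058-136352330 is in an intron of GPSM1, which encodes a regulator of G protein signalling, and held 23.8% of TAR1 counts. It was at 1.12 to 2.06 CPM in 4OHT siNT and 0.544 to 1.06 CPM in siSMARCA4, without overlap, a log2 fold change of -1.01 (SE 0.24, adjusted p 0.0227 by edgeR). GPSM1 itself was at -0.51 (SE 0.10, adjusted p 0.00112 by edgeR). Without 4OHT siNT 4-1VM the TAR1 locus was at -0.92 (adjusted p 0.0503 by edgeR). Its call also ended without a low-count filter, in siRNA number 2 alone, in siRNA number 4 alone, in VM libraries alone, with the tag letters as a term and with sparse repeat counts as a term (log2 fold changes -1.19 to -0.70, adjusted p 0.0538 to 0.411 by edgeR).

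TAR1 at chr6:160090971-160091434, in an intron of IGF2R, the receptor that carries IGF2 to lysosomes, had 4, 3, 6, 3 and 1 counts in DMSO siNT and 18 to 36 in 4OHT siNT. Every senescent siNT library was above every DMSO library. Its log2 fold change in senescence was 2.95 (SE 0.43, adjusted p 4.19e-05 by edgeR), beside 0.93 (SE 0.16, adjusted p 5.51e-05 by edgeR) for IGF2R. In siSMARCA4 it was at 0.0966 to 0.411 CPM, and after knockdown its log2 fold change was -1.06 (SE 0.35, adjusted p 0.0765 by edgeR).

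HSAT5v2 at chr9:33598581-33600214, in an intron shared by ANKRD18B and CYP4F26P, held 46.3% of HSAT5v2 counts. This locus had 24, 39, 43, 35 and 21 counts in DMSO siNT and 0 to 8 in 4OHT siNT, without overlap. Its log2 fold change in senescence was -3.59 (SE 0.56, adjusted p 7.57e-05 by edgeR), beside -3.24 (SE 0.26) for ANKRD18B and -3.67 (SE 0.38) for CYP4F26P. GSAT at chr8:22573053-22573104, in an intron of SORBS3, which encodes the adhesion protein vinexin, held 87.5% of GSAT counts. It was at 0.454 to 0.956 CPM in DMSO siNT and 0.261 to 0.568 CPM in 4OHT siNT, which overlapped, a log2 fold change of -0.92 (SE 0.29, adjusted p 0.0219 by edgeR), beside -1.28 (SE 0.078) for SORBS3. That call was lost without DMSO siNT 4-2VM, at -0.86 (adjusted p 0.0522 by edgeR), or 4-3VM, at -0.77 (adjusted p 0.0706 by edgeR). It was lost too without a low-count filter, in siRNA number 2 alone and in siRNA number 4 alone (log2 fold changes -1.01 to -0.91, adjusted p 0.0652 to 0.499 by edgeR).

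The 1 locus called higher after knockdown was SST1 at chr19:36305887-36307480, in an exon of the lncRNA ENSG00000267053 and an intron of LINC00665 on the other strand. It had 24, 12, 23, 10 and 20 counts in DMSO siNT, 1 to 17 in 4OHT siNT and 4 to 36 in siSMARCA4, which is 0.194 to 0.419, 0.0178 to 0.326 and 0.0773 to 0.724 CPM. The siSMARCA4 range overlapped with 4OHT siNT and spanned the DMSO range, and in senescence the locus was at -1.14 (SE 0.49, adjusted p 0.0963 by edgeR). The log2 fold change was 1.59 (SE 0.47, adjusted p 0.0497 by edgeR). Beside it ENSG00000267053 was at 0.58 (SE 0.44, adjusted p 0.375 by edgeR) and LINC00665 at -0.38 (SE 0.10, adjusted p 0.0104 by edgeR). Among the loci of these families 14 others match this SST1 locus at 99% identity or more, so its counts are uncertain. The call held in 2 of 17 fits that left out 1 library, those without 4OHT siNT 2-1VM or siSMARCA4 4-3V. In the other 15 the log2 fold change lay between 1.33 and 1.63 and the adjusted p of edgeR between 0.0550 and 0.107. The call also ended with RLE size factors, with scaling from repeats alone, without a low-count filter, in siRNA number 2 alone, in siRNA number 4 alone, with the siRNA number as a term, with the replicate number as a block and with sparse repeat counts as a term (log2 fold changes 1.41 to 1.75, adjusted p 0.0515 to 0.420 by edgeR).

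Over the 17 tested loci that lie in tested genes, the locus and its gene changed in the same direction for 14 in senescence and for 12 after knockdown. Pearson's r across these loci was 0.80 in senescence and 0.42 after knockdown, as a description. The points share libraries, and some loci share a gene or are near-identical copies. All 3 loci called in senescence that lie in tested genes went in the direction of the gene, and 1 of the 2 after knockdown did. The exception was SST1 on chromosome 19, set here against LINC00665, whose intron it lies in and which has more counts than ENSG00000267053, whose exon it also lies in. Against ENSG00000267053, at 0.58 (SE 0.44), it had the sign of the gene, but that gene was not called (adjusted p 0.375 by edgeR). Smaller families were also read inside genes. Of HSAT5 counts 83.2% came from a 68-base match in an exon of REST, a repressor of neuronal genes, and of HSAT4 counts 40.1% came from a match in an exon of ITGB1, an integrin subunit, that is also in an intron of ITGB1-DT on the other strand. In senescence ITGB1-DT was at 1.09 (SE 0.14, adjusted p 1.53e-06 by edgeR) and ITGB1 at 0.035 (SE 0.083, adjusted p 0.750 by edgeR), while the match, too low to test, had 0 to 4 counts in DMSO siNT and 1 to 10 in 4OHT siNT.

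**Figure D4:**
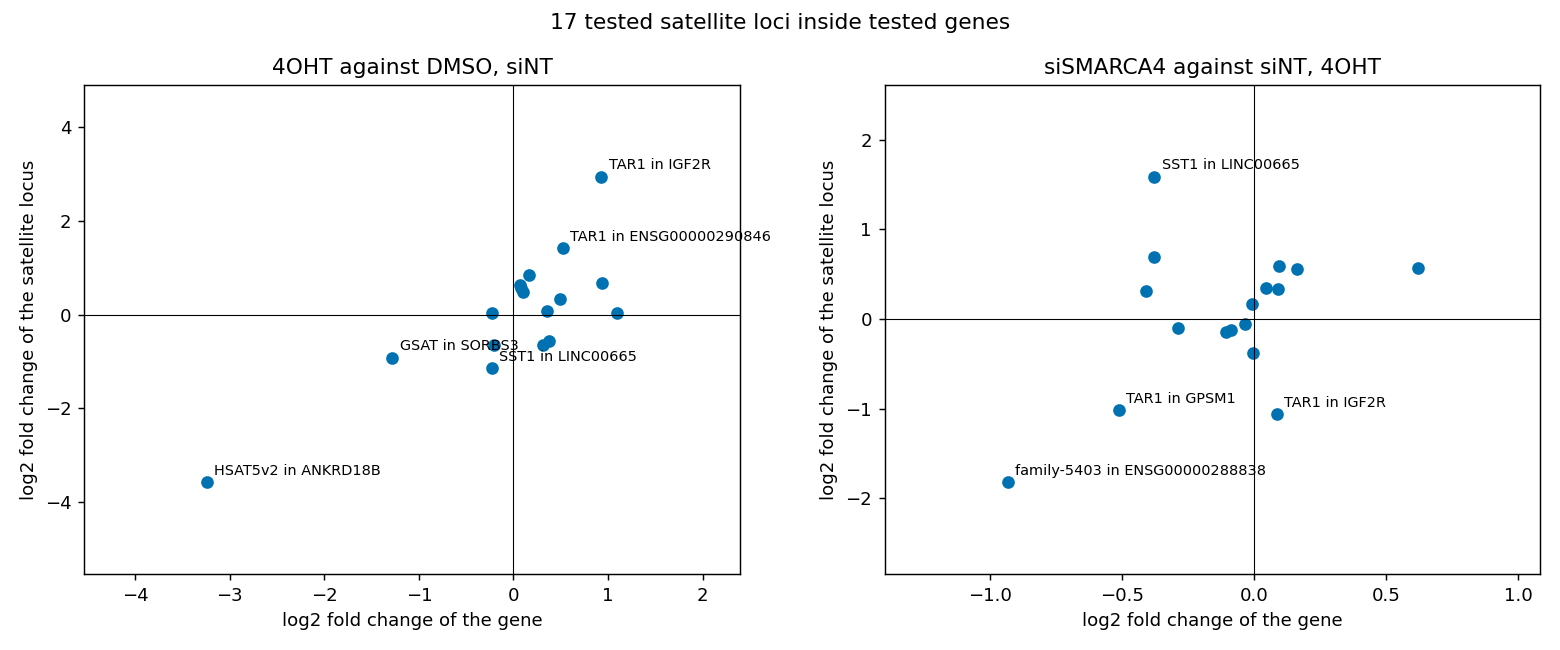
Log2 fold change of 17 tested satellite loci (vertical axes) against that of the gene each lies in, taken as the one with the most counts (horizontal axes), in senescence and after knockdown. HSAT5v2 in ANKRD18B and TAR1 in IGF2R lay farthest from 0 on the vertical axis in senescence, and 14 of 17 loci there and 12 of 17 after knockdown had the sign of their gene.

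Genes that keep satellites silent were listed as well. Of 19 tested, 11 were lower and 2 higher in senescence, and 3 were lower and 1 higher after knockdown. Over all 19473 genes tested, 5256 rose and 5345 fell in senescence, and 2018 rose and 2685 fell after knockdown. In senescence CDCA7 and HELLS, which together remodel nucleosomes for DNA methylation, fell by 5.41 (SE 0.31) and 2.58 (SE 0.14) on the log2 scale. UHRF1 was at -1.50 (SE 0.11), DNMT3B at -1.02 (SE 0.23) and CBX1, a heterochromatin protein, at -0.68 (SE 0.10). The 2 called higher were DAXX, at 0.57 (SE 0.073), and MORC2, at 0.50 (SE 0.090). After knockdown CBX3, another heterochromatin protein, was at 0.41 (SE 0.12, adjusted p 0.0196 by edgeR) and DNMT3A, a DNA methyltransferase, at -0.35 (SE 0.11, adjusted p 0.0290 by edgeR). Of 9 telomere proteins 8 were tested, of which 3 were higher and 2 lower in senescence, with TERF2 at 0.32 (SE 0.062), TERF2IP at 0.32 (SE 0.10), TINF2 at 0.22 (SE 0.066), POT1 at -0.97 (SE 0.10) and TERF1 at -0.50 (SE 0.11). After knockdown edgeR called 0 of them. TERT had 0 counts. None of the 9 genes of the DUX4 list could be tested, since DUX4, LEUTX, MBD3L2 and PRAMEF1 had 0 counts in all libraries and the list summed to at most 0.139 CPM in a library.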

How the data were processed

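Per the labels and the study's methods, poly(A) RNA was sequenced as stranded read pairs. According to the submitters' processing notes, reads were trimmed with Cutadapt 4.7 and aligned to GRCh38 with HISAT2 2.2.1, and the authors counted with TElocal, which divides pairs with several alignments by maximum likelihood. Counting used strand, genes came from Ensembl and repeats from the authors' own RepeatMasker run with Dfam models. For each library the deposited table holds expected counts, whole and not normalised, of 62754 genes and 4748242 repeat loci. Totals were 39109479 to 68978119 counts.

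Locus counts were summed per subfamily. Genes were fitted with subfamilies, and separately with repeat loci of 10 or more counts, using edgeR 4.0.16 in R 4.3.3 (filterByExpr, minimum count 10, minimum total count 15; TMM; quasi-likelihood test over 17 libraries with 1 term per group; Benjamini-Hochberg over all subfamilies or all repeat loci). A call is an adjusted p under 0.05. CPM values, those of loci included, were scaled by the TMM factors of the fit with subfamilies. Fold changes of loci came from the fit with loci and its own factors, so they need not equal ratios of the printed CPM. Fold changes of genes came from the fit with subfamilies. Positions in genes came from GENCODE release 44 and copies from blastn 2.17.0+ among the loci of these families (at least 80% of the length). The families, gene lists and tests were chosen with earlier results of these data known. Named were all subfamilies, called loci, the locus with the most counts of a subfamily, and their genes and neighbours. Alternatives included DESeq2 1.42.0, other scalings and covariates, and each library left out. Chi-square per gene between libraries of a group was at least 4.68, so none was counted as a duplicate. The replicate numbers were not taken to pair libraries. One list of marker genes is not reported here.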

Additional observations from a re-analysis of the deposited data

Results flagged for a closer look

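A library was set apart from its group in 1 case. The family-5403 locus at chr20:30812229-30812895 was at 0.468 CPM in DMSO siNT 2-2VM, while the other 4 DMSO libraries were at 0 to 0.0796 CPM. In all 66 groups of values were checked in this way, and chance alone sets apart about 1 in 20 of them, so 1 case is not more than chance gives.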

How the results depend on the processing

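Depth limits most loci, since 33 of 2612 could be tested, and near-identical copies share reads. Subfamilies called after knockdown, 2 in the chosen fit, numbered 1 in siRNA number 2 alone, 1 in number 4 alone and 0 with sparse repeat counts as a term (3 at an unadjusted p under 0.05 by edgeR), and 2 to 3 with 1 library left out. In senescence 4 became 0 in number 4 alone (5 at an unadjusted p under 0.05 by edgeR, where DESeq2 called 4 over all libraries), 2 with sparse repeat counts and 2 to 4 with 1 library left out, with 2 without DMSO siNT 4-3VM, 4OHT siNT 2-1VM or 4OHT siNT 4-1VM. Loci called after knockdown, 5 in the chosen fit, numbered 1 without a low-count filter, 2 in VM libraries alone, 3 with the tag letters and 3 with the siRNA number as a term, and 0 in siRNA number 2 alone, in number 4 alone and with sparse repeat counts (11, 5 and 10 at an unadjusted p under 0.05 by edgeR, and 6 called by DESeq2 over all libraries). They numbered 2 to 5 with 1 library left out, with 2 without 4OHT siNT 4-1VM and 3 without 4OHT siNT 2-2VM, 4-2VM or 2-3VM or siSMARCA4 2-1VM, 2-3V, 2-3VM or 4-2VM. Loci called in senescence, 4 in the chosen fit, ranged from 3 to 5 with 1 library left out and from 3 to 6 under the other settings. The cause of these changes was not tested.

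The replicate numbers were not taken to pair the libraries, since not every pair correlated above 0.1. Deviations of same-numbered libraries of different groups correlated with a mean r of 0.0455 over 32 pairs, 12 of them above 0.1, against -0.0236 over 64 pairs with other numbers, 16 of them above 0.1. The mean deviations of DMSO siNT and 4OHT siNT correlated at 0.38 for number 1, -0.089 for number 2 and 0.48 for number 3, and 8 of 17 libraries correlated best with their own number. With the replicate number as a block, 2 subfamilies and 3 loci were called after knockdown and 3 subfamilies and 5 loci in senescence, with GSAT at -0.75 (adjusted p 0.0664 by edgeR).

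The sign of an uncalled log2 fold change after knockdown turned with scaling from repeats alone GSAT (-0.057), GSATII (-0.0035) and HSAT4 (-0.17), in siRNA number 2 alone rnd-1_family-1 (0.0044) and HSAT5v2 (0.38), in siRNA number 4 alone GSAT (-0.18), HSAT4 (-0.55) and HSAT5 (-0.70), with sparse repeat counts as a term GSATII (-0.29), HSAT4 (-0.50) and CER (-0.54), in VM libraries alone HSAT4 (-0.023) and HSAT5v2 (0.25). It also turned after knockdown when 1 library was left out, with lowest and highest values for HSAT4 (-0.16 to 0.29), CER (-0.016 to 0.72) and HSAT5v2 (-0.21 to 0.080). The sign of an uncalled log2 fold change in senescence turned with DESeq2 rnd-1_family-4 (-0.0027), with scaling from repeats alone GSATII (-0.071), rnd-1_family-4 (-0.023) and LSAU (-0.042), without a low-count filter rnd-1_family-4 (-0.017), in siRNA number 2 alone rnd-1_family-1 (-0.28), in siRNA number 4 alone GSATII (-0.59), BSR/Beta (0.40), CER (-0.68), HSAT5 (0.63) and LSAU (-0.24), with the siRNA number as a term rnd-1_family-4 (-0.050), in VM libraries alone GSATII (-0.21), BSR/Beta (0.029) and LSAU (-0.11), with the tag letters as a term GSATII (-0.14) and LSAU (-0.15). It also turned in senescence when 1 library was left out, with lowest and highest values for GSATII (-0.094 to 0.28), CER (-0.11 to 0.51), rnd-1_family-1 (-0.13 to 0.22), rnd-1_family-4 (-0.18 to 0.42) and LSAU (-0.11 to 0.10).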
